A study of Mus musculus with 6 samples.

Results

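The genes that give a neuron its fast transmitter were followed across 6 mouse brains: Slc17a7 and Slc17a6 for glutamate, Slc32a1, Gad1 and Gad2 for GABA, Slc6a5 for glycine, and Chat and Slc5a7 for acetylcholine. All probe sets annotated to exactly 1 of these 8 symbols were taken, with no filter on level, which gave 15 of the 45037 probe sets of the Affymetrix mouse array. A probe set pools several short probes meant for a transcript or a group of transcripts, and its value is a signal intensity on a linear scale. Knockout mice (MTf -/-, strain given as C57BL/6 - Lucy, n = 4) lacked melanotransferrin, an iron-binding membrane protein encoded by Meltf, and were set against wild-type littermates (MTf +/+, strain C57BL/6, n = 2). All 6 were females of 123 days, each on 1 array of total brain RNA, and no treatment is named. What Lucy stands for, which part of the gene was deleted and how the brains were dissected is not stated by the labels.

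Neurons are sorted by the transmitter they make and load into vesicles. Glutamate is loaded by the vesicular transporters VGLUT1 (Slc17a7), typical of cortex, hippocampus and cerebellar granule cells, and VGLUT2 (Slc17a6), typical of thalamus, hypothalamus and brainstem. GABA is made from glutamate by the decarboxylases GAD67 (Gad1) and GAD65 (Gad2), and is loaded by Slc32a1, which also carries glycine. Slc6a5 is the glycine transporter GlyT2, which marks glycinergic neurons of brainstem, spinal cord and cerebellum. Chat makes acetylcholine and Slc5a7 takes up the choline for it, in motor neurons, basal forebrain and striatal interneurons.

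The 250 bases upstream of an annotated start are shown for 4 genes, Gad1 as the member whose brighter probe set varied least, Slc6a5 as the one that varied most, Slc17a6 as one whose probe sets gave opposite signs, and Gad2 as the partner of Gad1. They are from RefSeq (GRCm38.p6) and run 5′ to 3′, for the first listed start where there were several. The stretches of Gad1, Gad2 and Slc6a5 lie inside the annotated span of the gene, which begins further upstream.
Gad1, chr2:70561879-70562128, plus strand: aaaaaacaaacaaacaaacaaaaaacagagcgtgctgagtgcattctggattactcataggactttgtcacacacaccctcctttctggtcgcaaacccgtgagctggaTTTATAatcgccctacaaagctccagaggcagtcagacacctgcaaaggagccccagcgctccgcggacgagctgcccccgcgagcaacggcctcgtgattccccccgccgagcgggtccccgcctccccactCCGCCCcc
Gad2, chr2:22622077-22622326, plus strand: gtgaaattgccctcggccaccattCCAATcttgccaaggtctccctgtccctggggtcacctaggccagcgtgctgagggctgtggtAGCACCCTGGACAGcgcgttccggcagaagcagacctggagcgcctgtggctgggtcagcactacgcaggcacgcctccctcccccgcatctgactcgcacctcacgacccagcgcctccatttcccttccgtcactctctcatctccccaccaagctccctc
Slc17a6, chr7:51621580-51621829, plus strand: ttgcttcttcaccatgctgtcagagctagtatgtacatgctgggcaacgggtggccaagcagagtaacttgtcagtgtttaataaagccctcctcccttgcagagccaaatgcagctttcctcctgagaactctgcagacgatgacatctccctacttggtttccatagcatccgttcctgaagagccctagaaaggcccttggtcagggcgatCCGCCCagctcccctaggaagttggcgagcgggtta
Slc6a5, chr7:49910049-49910298, plus strand: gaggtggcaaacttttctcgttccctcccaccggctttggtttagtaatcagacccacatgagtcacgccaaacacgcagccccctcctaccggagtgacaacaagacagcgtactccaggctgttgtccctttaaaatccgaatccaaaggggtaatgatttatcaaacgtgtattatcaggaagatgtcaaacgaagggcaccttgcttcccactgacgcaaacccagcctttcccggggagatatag
Capitals mark matches, on either strand, to the TATA box (TATAAA), the GC box (GGGCGG), the CCAAT box, the cAMP response element (TGACGTCA) and the core of repressor element 1, taken as AGCACC and, after any 2 bases, GGACAG. Repressor element 1 is bound by the repressor REST, which is known to silence neuronal genes in other cells. Its core lay 163 to 150 bases before the start in Gad2, where a CCAAT box was marked too. That core was in 0.0457% of all 32851 upstream windows and in 1 of the 10 windows of the 8 genes. The GC box was in 32.7% of all windows and in those of Slc17a7, Slc17a6 and Gad1, the TATA box in 12.4% and in those of Gad1 and Slc5a7, the CCAAT box in 33.8% and in those of Gad2 and Chat, and the cAMP response element in 1.55% and in 0 of the 10. The motifs were chosen with the sequences in view, and a match is a string of letters, not a shown binding site.

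Before the members are read, 2 arrays need describing. Wild type 1 had 24.5% of its probe sets below 49.6, the value added to every signal before taking log2, compared with 17.6% to 20.2% elsewhere, and its 3′ to 5′ ratio of Gapdh was 1.05 against 0.826 to 0.909. The same ratio of actin was highest in knockout 4, at 2.75, then 2.35 in wild type 1 and 1.83 to 2.15 in the other mice. Knockout 2 was low in cerebellar transcripts. That of Pcp2 read 185.8 in this mouse and 22260 to 34050 in the other 5. That of Car8, a Purkinje cell protein, read 1058 in this mouse and 9323 to 16479 in the other 5. The summed signal of 8 cerebellar genes was 72726, 2217, 52139 and 78240 in knockouts 1 to 4, against 75476 and 82188 in wild types 1 and 2, all 8 genes were lowest in knockout 2, and 0 were listed at a signal of 0. Neuronal content was clear in all mice, with Snap25, a vesicle fusion protein, at 54355 to 61027 in the knockouts, against 45275 and 60502 in wild type. Meltf itself read 80.7, 132.9, 155.9 and 84.1 in the knockouts, against 146.5 and 228.7 in wild type, which overlap, so it does not check the labels. In whole-brain RNA, fewer cells of a type and less RNA per cell cannot be told apart.

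No transmitter identity gene passed the test between genotypes. In limma, fitted on all 45037 probe sets, 0 of the 15 had an adjusted p under 0.05, as was so for 0.0% of all probe sets, and 2 of the 15 had an unadjusted p under 0.05, against 6.76% of all. The 2 genotypes were fully separated on 1 of the 15, a Slc17a6 probe set, against 16.1% of all probe sets. The median log2 fold change of the 15 was 0.091, beside 0.078 over all probe sets, and the median size without sign was 0.27, beside 0.22. Median centring of the arrays moved the median over all probe sets to -0.136 and turned the sign of 7 of the 15, so directions near 0 depend on scaling, while the brighter Slc17a6 probe set and the brightest of Slc32a1 and Slc6a5 were lower in the knockout under both scalings tried. Of the 15, 10 lay above the lowest 40% of mean levels, and 8 were above 49.6 on all 6 arrays. The 5 within the lowest 40% were 3 of the 4 for Slc32a1, 1 of the 2 for Slc6a5, and the single one for Slc5a7. An exact permutation test of each probe set over the 15 splits of 4 against 2 arrays, 2-sided, can reach no p below 0.0667, and the lowest found among the 15 was 0.1333.

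**Figure D1:**
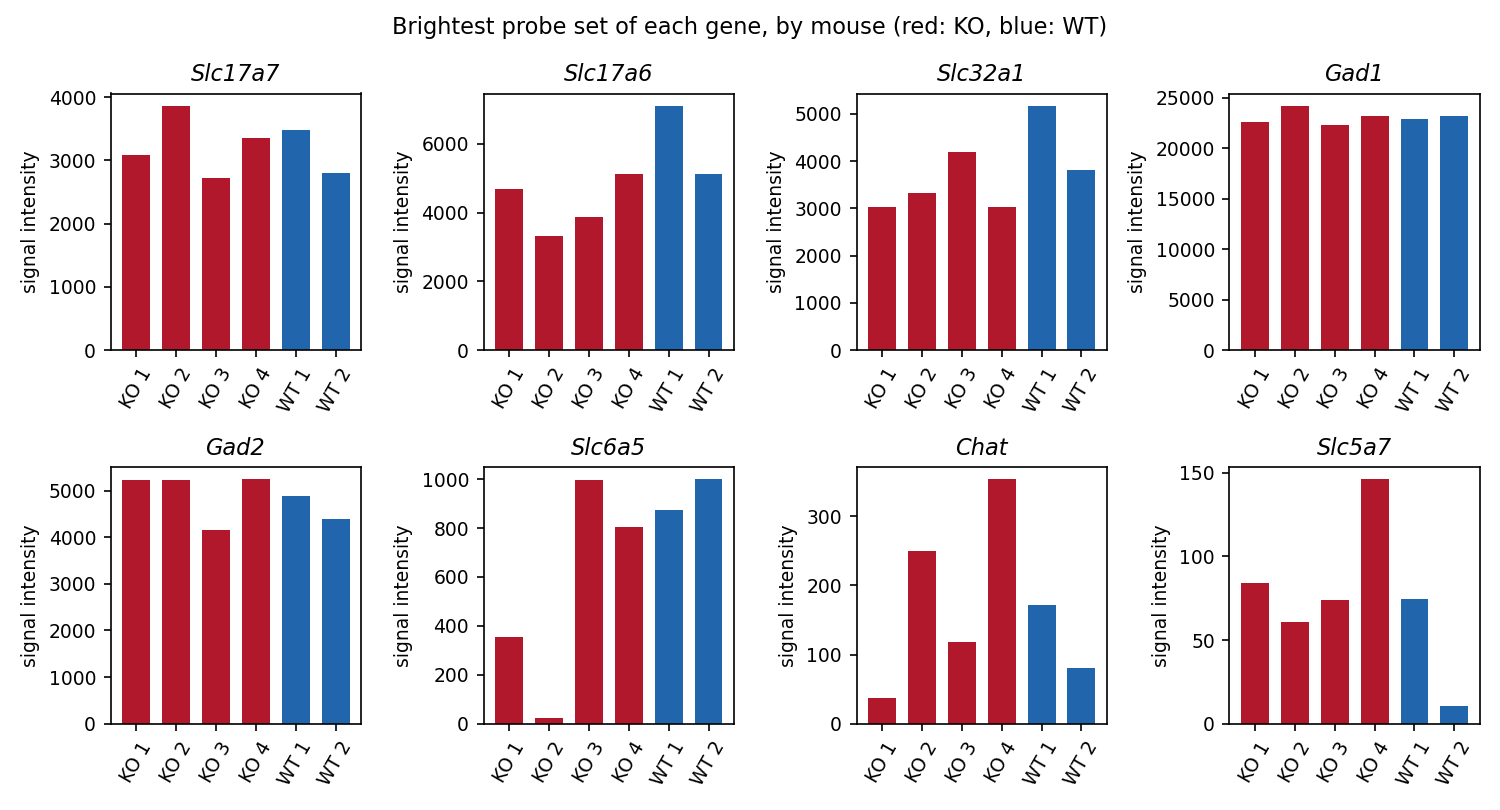
Signal intensity (linear axis from 0, its own scale in each panel) of the brightest probe set of each of the 8 genes, 1 bar per mouse, with the 4 knockouts (KO, red) left of the 2 wild types (WT, blue). Gad1 stays between 22344 and 24218 in all mice, while Slc6a5 is 22.9 in knockout 2 and 354 to 999.8 in the others.

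The vesicular glutamate transporter of cortex and granule cells, Slc17a7, differed by less than the spread between mice. Its single probe set read 3080, 3865, 2719 and 3350 in knockouts 1 to 4, against 3488 and 2808 in wild types 1 and 2. Both wild types thus lay inside the knockout range, with knockout 2 the highest and knockout 3 the lowest of all. The means were 3254 ± 483 (SD, n = 4) in knockouts and 3148 ± 481 (SD, n = 2) in wild type, a log2 fold change of 0.043 with a 95% interval from -0.32 to 0.40 (limma adjusted p = 0.965). Knockout 2, the brain with the lowest cerebellar signal, also had the highest summed signal of 6 cortical and hippocampal genes, 49138, against 34161 to 38908 in the other knockouts and 35347 and 35816 in wild type. Camk2a, a kinase of forebrain excitatory neurons and the member of that list with the highest mean signal, read 22314 in knockout 2 and 13257 to 16171 in the other 5 mice. Nrgn, a calmodulin-binding protein of the same neurons, read 10206 in knockout 2, within its range of 7332 to 11478 in the other 5. The part of brain content in the Slc17a7 values was not tested.

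Slc17a6, the glutamate transporter of thalamus and brainstem, gave opposite answers on its 2 probe sets. The brighter one read 4696, 3335, 3877 and 5134 in knockouts 1 to 4, against 7112 and 5136 in wild types 1 and 2. All knockouts lay below both wild types, but knockout 4 and wild type 2 differed by only a few units of signal. The means were 4260 ± 807 (SD, n = 4) in knockouts and 6124 ± 1397 (SD, n = 2) in wild type, a log2 fold change of -0.52 (SE 0.19, limma unadjusted p = 0.0233, adjusted p = 0.738, exact permutation p = 0.1333). Among all probe sets, 4.81% had every knockout below both wild types. Without wild type 1 this log2 fold change was -0.29. The summed signal of 6 thalamic and midbrain genes, from regions rich in this transporter, was 5605, 4614, 3124 and 5078 in knockouts 1 to 4, against 4434 and 3863 in wild types 1 and 2, with 4 of the 6 higher and 2 lower on average in the knockout and 0 listed at a signal of 0. That list did not set wild type 1 apart, and its part in the Slc17a6 values was not tested.

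The dimmer Slc17a6 probe set turned the other way. It read 1600, 1201, 1066 and 1503 in knockouts 1 to 4, against 402.7 and 1372 in wild types 1 and 2, so that wild type 1 alone stood low and wild type 2 lay inside the knockout range. Its log2 fold change was 0.78 (SE 0.37, limma adjusted p = 0.743). With wild type 1 as the only wild type it was 1.60 and passed (limma adjusted p = 0.0473), as did 171 of all 45037 probe sets. In that fit the knockouts alone give the spread, and the lone wild type is assumed to vary as they do. Against wild type 2 alone it was -0.048. On wild type 1 the brighter probe set was the highest of the 6 arrays and the dimmer one the lowest. The log2 ratio of the brighter to the dimmer was 1.52, 1.44, 1.82 and 1.74 in knockouts 1 to 4, against 3.98 and 1.87 in wild types 1 and 2, a ratio from which a common scale of each array cancels but for the added 49.6. Averaged over both probe sets, the log2 fold change of Slc17a6 was 0.13, opposite in sign to the brighter one alone.

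**Figure D2:**
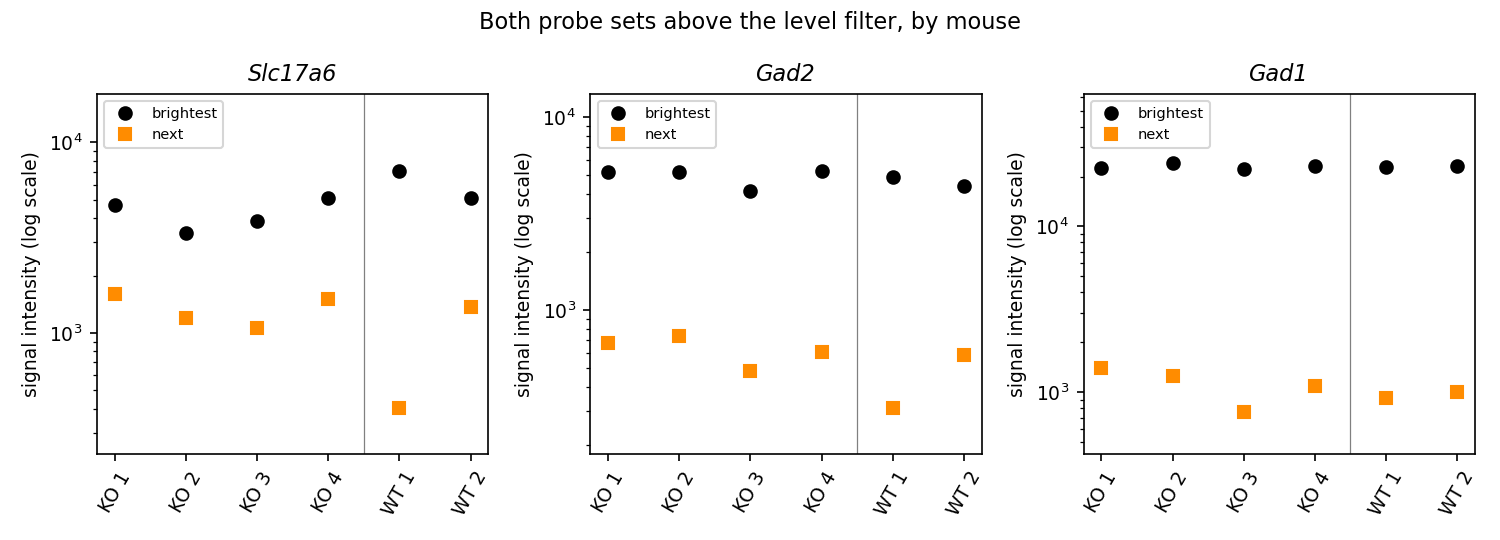
Signal intensity (log axis) of the brightest (black circles) and the next (orange squares) probe set of Slc17a6, Gad2 and Gad1 in each mouse, knockouts (KO) left of wild types (WT). In Slc17a6 and Gad2 the dimmer probe set is lowest in wild type 1, at 402.7 and 310.1, which the brighter one does not follow.

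The ratio of the 2 glutamate transporters followed from these values. The log2 ratio of the Slc17a7 probe set to the brighter Slc17a6 probe set was -0.60, 0.21, -0.50 and -0.61 in knockouts 1 to 4, against -1.02 and -0.86 in wild types 1 and 2. No knockout overlapped with wild type here, and knockout 2 was the only mouse with a ratio above 0. Among all single probe sets 16.1% had no overlap between groups, and no such share was taken over ratios. The mean was -0.38 in the knockout and -0.94 in wild type. As ratios of unlike probes, these numbers compare mice, not the amounts of the 2 transcripts. Against the dimmer Slc17a6 probe set the log2 ratio of Slc17a7 was 0.92, 1.65, 1.31 and 1.13 in knockouts 1 to 4, against 2.97 and 1.01 in wild types 1 and 2, and wild type 1 stood highest.

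Among the GABA genes, Gad1, the enzyme behind most basal GABA, was the steadiest. Its brighter probe set read 22648, 24218, 22344 and 23214 in knockouts 1 to 4, against 22932 and 23182 in wild types 1 and 2. The highest value was 1.08 times the lowest, and both wild types lay inside the knockout range. The SD of its log2 values over the 6 mice was 0.040, at the 0.1 percentile of the 27022 probe sets above the lowest 40% of levels. The means were 23106 ± 824 (SD, n = 4) in knockouts and 23057 ± 177 (SD, n = 2) in wild type, with a 95% interval of the log2 fold change from -0.32 to 0.32 (limma adjusted p = 0.997). A second Gad1 probe set was not as steady. It read 1394, 1244, 759.2 and 1086 in the knockouts, against 927.3 and 997.9 in wild type, with an SD at the 60.3 percentile and a log2 fold change of 0.18 (limma adjusted p = 0.879).

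Gad2, the vesicle-associated decarboxylase, passed on neither of its 2 probe sets. The brighter one read 5221, 5228, 4152 and 5242 in knockouts 1 to 4, against 4890 and 4389 in wild types 1 and 2. Knockouts 1, 2 and 4 lay close together above both wild types, and knockout 3 lay below all other mice. The log2 fold change was 0.091 with a 95% interval from -0.22 to 0.40 (limma adjusted p = 0.902). The dimmer one read 672.5, 732.2, 482.2 and 601.6 in the knockouts, against 310.1 and 580.8 in wild type, a log2 fold change of 0.48 (SE 0.27, limma adjusted p = 0.750). Without wild type 1 it was 0.077 and without wild type 2 it was 0.89. The log2 ratio of the brighter to the dimmer Gad2 probe set was 2.76 to 3.02 in the knockouts. It was 3.78 and 2.82 in wild types 1 and 2, so wild type 1 stood apart as it did for Slc17a6. The same ratio of Gad1 was 3.97 to 4.79 in the knockouts, against 4.56 and 4.47 in wild types 1 and 2. There wild type 1 did not stand apart.

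Slc32a1, which loads GABA and glycine into vesicles, had lower means in the knockout on the 1 probe set with a clear signal. That probe set read 3037, 3316, 4191 and 3026 in knockouts 1 to 4, against 5169 and 3812 in wild types 1 and 2. Wild type 1 was the highest, and knockout 3 exceeded wild type 2, so the groups overlapped. The means were 3392 ± 549 (SD, n = 4) in knockouts and 4490 ± 959 (SD, n = 2) in wild type, a log2 fold change of -0.40 with a 95% interval from -0.78 to -0.0090 (limma unadjusted p = 0.0457, adjusted p = 0.738, exact permutation p = 0.2). It was -0.18 without wild type 1. The other 3 Slc32a1 probe sets read 5.4 to 44.2 on all arrays, below 49.6, and their log2 fold changes of 0.078, 0.19 and 0.0088 rest on such dim signals.

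**Figure D3:**
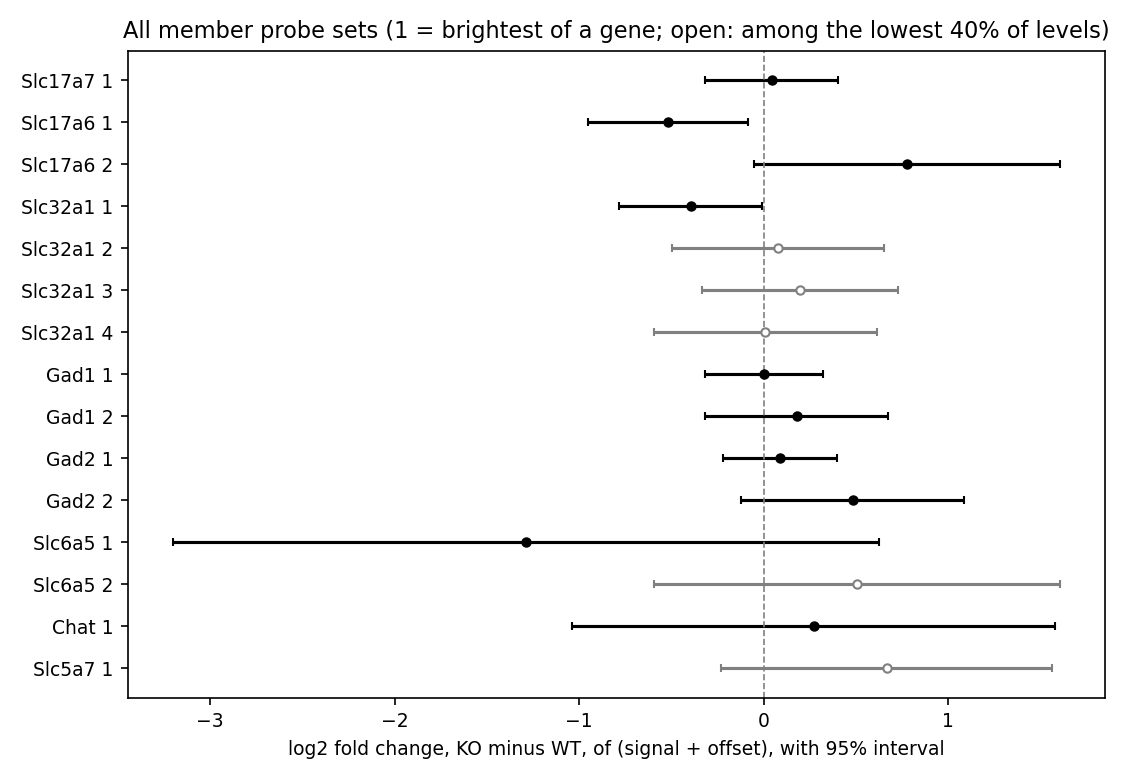
Log2 fold change, knockout (KO) minus wild type (WT), of signal plus 49.6 for the 15 probe sets (numbered from the brightest of each gene), with bars for the 95% interval from limma. Filled points lie above the lowest 40% of levels and open points within it. The widest interval, from -3.20 to 0.62, belongs to Slc6a5, and the 2 Slc17a6 probe sets fall on opposite sides of 0.

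The glycine gene Slc6a5 varied among mice more than any other member, and it did so within the knockout group. Its brighter probe set read 353.8, 22.9, 997.6 and 802.8 in knockouts 1 to 4, against 872 and 999.8 in wild types 1 and 2. Knockouts 3 and 4 came near the wild-type values, knockout 1 read lower, and knockout 2 was below 49.6. The SD of its log2 values of signal plus 49.6 over the 6 mice lay at the 99.9 percentile. The means were 544 ± 440 (SD, n = 4) in knockouts and 936 ± 90.4 (SD, n = 2) in wild type, a log2 fold change of -1.29 with a 95% interval from -3.20 to 0.62 (limma adjusted p = 0.777, exact permutation p = 0.4667). Without knockout 2 it was -0.47. The dimmer probe set read 56.4, 13.9, 90.9 and 200.5 in the knockouts, against 28.6 and 47.9 in wild type, with knockout 2 and both wild types below 49.6. Its log2 fold change of 0.51 (limma adjusted p = 0.840) rests on such dim signals.

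Hindbrain genes resembled Slc6a5 unevenly. Of all genes above the lowest 40% of levels, Paqr6, a membrane receptor of the progestin and adipoQ family, and Hoxa5, a patterning gene of the caudal hindbrain and spinal cord, had the patterns most like it, with a Pearson correlation of 0.9947 and 0.9942 over the 6 arrays, where 242 genes had one above 0.9. This Hoxa5 probe set, named for that likeness, read 239.1, 19.2, 659.7 and 560.4 in knockouts 1 to 4, against 447.7 and 594.8 in wild types 1 and 2. The same order of mice was not seen on the brightest Hoxa5 probe set, which read 817.4 to 996.3 on all arrays. Of 9 Hox genes measured from a list of 11 hindbrain genes, 5 were lowest in knockout 2, 2 in knockout 1 and 2 in wild type 1 on their brightest probe sets. Their summed signal was 1359, 1308, 3098 and 2102 in knockouts 1 to 4, against 2260 and 3062 in wild types 1 and 2, and 0 were listed at a signal of 0. Hoxb3 read 18.5, 15.2, 460.1 and 229.3 in the knockouts, against 255.2 and 519.7 in wild type. Hoxb2 and Hoxc4 read 32.9 and 25.4 in knockout 4, where Slc6a5 read 802.8, and Hoxa3 was lowest in wild type 1. Knockout 1 had a low Hox sum and a low Slc6a5 signal with its cerebellar genes at 72726 in sum, whereas knockout 2 was low in all 3. The part of hindbrain and cerebellar content in the Slc6a5 values was not tested.

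**Figure D4:**
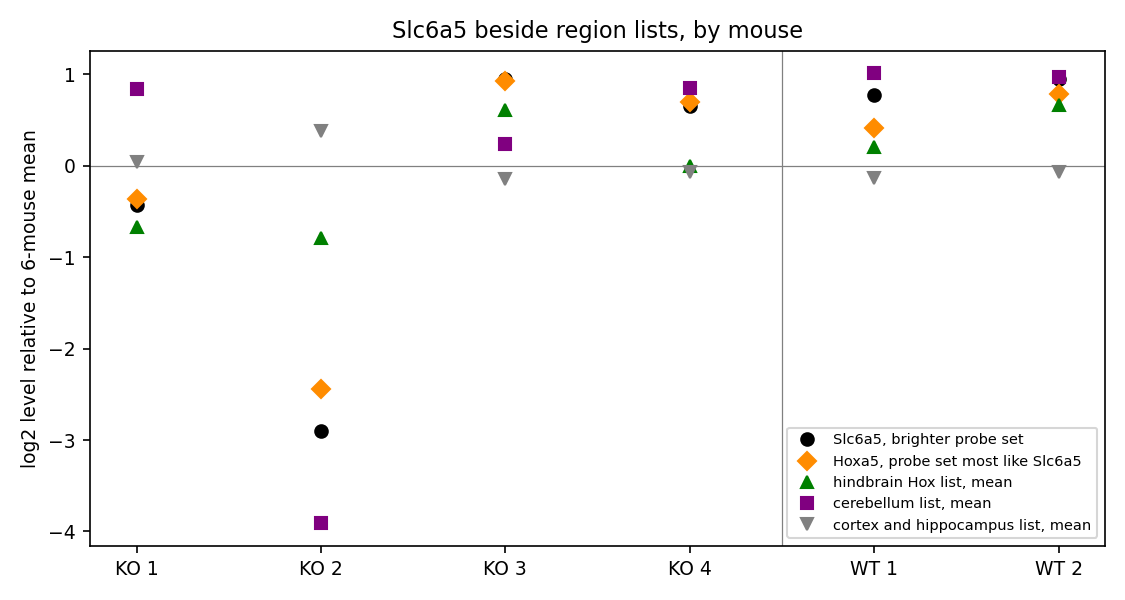
Log2 level relative to the mean of the 6 mice for Slc6a5 and 1 Hoxa5 probe set, and the mean of the same for the hindbrain Hox, cerebellum, and cortex and hippocampus lists, in each mouse, knockouts (KO) left of wild types (WT). In knockout 2 Slc6a5 is at -2.90 and the cerebellum list at -3.91. In knockout 1 Slc6a5 is at -0.43 while the cerebellum list is at 0.84.

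The receptor side of glycine signalling was measured too. Glra1, the adult glycine receptor subunit of hindbrain and cord, read 467.9, 126.4, 1417 and 1193 in knockouts 1 to 4, against 492.8 and 702.5 in wild types 1 and 2, on its brighter probe set. Knockout 2 was again the lowest, but knockouts 3 and 4 exceeded both wild types (limma adjusted p = 1.0). Slc6a9, the mainly glial glycine transporter, read 2624 to 3621 in the knockouts, against 2874 and 2816 in wild type, on its brighter probe set. Its dimmer one read 1370, 554.2, 955.7 and 1163 in knockouts 1 to 4, against 416.8 and 705.8 in wild types 1 and 2, with wild type 1 the lowest and knockout 2 the lowest of the knockouts (log2 fold change 0.77, limma unadjusted p = 0.0416, adjusted p = 0.738).

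The acetylcholine genes gave dim signals that were uneven from mouse to mouse. Chat, on its single probe set, read 37.2, 249.3, 118.9 and 353.8 in knockouts 1 to 4, against 171.8 and 80.6 in wild types 1 and 2. Both wild types lay inside the knockout range, and knockouts 1 and 4 were the lowest and the highest. The log2 fold change was 0.27 with a 95% interval from -1.04 to 1.58 (limma adjusted p = 0.936). Slc5a7 read 84.2, 60.6, 73.9 and 146.1 in the knockouts, against 74.7 and 10.7 in wild type, and wild type 2 stood lowest. Its log2 fold change was 0.67 with a 95% interval from -0.23 to 1.56 (limma adjusted p = 0.760), 0.14 without wild type 2 and 1.19 without wild type 1. Slc18a3, the vesicular acetylcholine transporter, whose gene lies within that of Chat, read 155.6, 99.1, 287.1 and 132.4 in the knockouts, against 157.4 and 163.7 in wild type. The 3 genes did not order the mice alike: knockout 4 was highest for Chat and Slc5a7, and knockout 3 for Slc18a3. Of 6 measured markers of cholinergic neurons, 3 had higher and 3 lower means in the knockout, and 0 were listed at a signal of 0. Their summed signal was 924.5, 963.6, 1775 and 773.2 in knockouts 1 to 4, against 1041.5 and 905.9 in wild types 1 and 2, so that knockout 3 stood highest and knockout 4 lowest. The 3 that were above 49.6 on all arrays, Isl1, Ngfr and Prph, had log2 fold changes of 0.16, 0.71 and -0.69. The part of these markers in the Chat and Slc5a7 values was not tested.

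Genes that serve the same transmitters downstream did not pass either. Of a list of 28 uptake, recycling, breakdown and receptor genes, 23 had a probe set of their own, 7 with higher and 16 with lower means in the knockout on the brightest one. The other 5 were not analysed here. In limma 0 of their 52 probe sets passed, 7 had an unadjusted p under 0.05 and 11 did not overlap between groups, against 6.76% and 16.1% of all probe sets. Slc38a2, a glutamine carrier, had the smallest p of the brightest probe sets, and read 7923, 6474, 8162 and 6650 in knockouts 1 to 4, against 9331 and 9467 in wild types 1 and 2. The groups did not overlap on this probe set (log2 fold change -0.37, limma adjusted p = 0.738). They did overlap on the dimmer Slc38a2 probe sets, with log2 fold changes of -0.005 and -0.28. The GABA transporters Slc6a11 and Slc6a13 had log2 fold changes of -0.34 and -0.39, and Glra3, a glycine receptor subunit, had -0.24, on their brightest probe sets. A dim Slc6a11 probe set read 7.7, 4.5, 13.7 and 24.6 in knockouts 1 to 4, against 102.3 and 46.2 in wild types 1 and 2. Its log2 fold change was -0.97 (limma unadjusted p = 0.00685, adjusted p = 0.738). A dim Glra3 probe set had -0.37. Slc1a2, the main astrocytic glutamate transporter, and Glul, which turns glutamate into glutamine in astrocytes, had 0.31 and 0.26 on their brightest probe sets, with wild type 1 the lowest of the 6 mice for both. The second Glul probe set had 0.0009, and the other 4 of Slc1a2 ran from -0.042 to 0.56. Of 7 astrocyte markers 6 had lower means in the knockout, with a summed signal of 56657, 47898, 61501 and 60711 in knockouts 1 to 4, against 64618 and 66446 in wild types 1 and 2, and 0 listed at a signal of 0. Gja1 and S100b, the brightest of these markers, overlapped between groups, with log2 fold changes of 0.011 and -0.16. Gfap, the astrocyte filament protein, and Aqp4, a water channel, had the smallest p of the 7. They did not overlap between groups and were highest in wild type 1. Their log2 fold changes were -0.63 and -0.64 (limma adjusted p = 0.738 for both). The part of astrocyte content in the Slc1a2 and Glul values was not tested. Ache, which breaks down acetylcholine, had -0.33 (limma adjusted p = 0.784). It read 721.3 to 985.4 in the knockouts, against 1386 and 802.9 in wild types 1 and 2. Wild type 2 thus lay inside the knockout range.

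Each remaining member also had genes with nearly its pattern over the 6 arrays, as a description of 6 points. The highest Pearson correlations were with Foxp2 (0.9927) and Add1 (0.989) for Slc17a7, with St6galnac4 (0.9915) and Isca1 (0.9914) for the brighter Slc17a6 probe set, and with Hsd17b4 (0.992) and Ctps2 (0.9889) for Slc32a1. For Gad1 they were Fezf2 (0.9869) and Lrrtm2 (0.9828), and for Gad2 they were Ccnj (0.9921) and Shisa6 (0.9823). For Chat they were Selenow (0.9899) and Samhd1 (0.9888), and for Slc5a7 they were Phf3 (0.9993) and Lpcat1 (0.9894). With so few arrays such values are common: 70 genes for Gad1 and up to 396 for Slc17a6 had a correlation above 0.9.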

How the data were processed

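Brain RNA of 6 mice was measured on 1 Affymetrix array each. The deposited values are signal intensity on a linear scale, made with GCOS 1.3 per the submitters' processing notes, with the summary method and detection calls not given in the sources used here. On every array the middle 96% of values averages 1000.0, so the authors had scaled them. Of 45101 probe sets, 64 controls were left out. Symbols came from the platform annotation.

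The test was limma 3.58.1 (R 4.3.3), lmFit and eBayes with an intensity trend, on log2 of signal plus 49.6, the 20th percentile of the table, with no level filter, knockout minus wild type, 2-sided, Benjamini-Hochberg over 45037 probe sets, threshold 0.05. Fold changes of dim probe sets are understated. The fit was tested on simulated data. The number of arrays limits the precision. Replicate numbers follow deposit order and only name a mouse. Alternatives were quantile normalisation, median centring, the added value times 4 or 0.25, a 40% level filter, no trend, and leaving out each array. Members, lists and the naming rule (every member probe set, fixed partner genes plus those with the smallest p, the 2 genes most alike) were chosen with earlier results of these data known. P-values are not adjusted over the members alone. Plots used Python 3.11.15.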

Additional observations from a re-analysis of the deposited data

Results flagged for a closer look

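The brighter Gad2 probe set drew attention because knockout 3, at 4152.4, lay far below the other knockouts, which read 5220.5, 5228.2 and 5242.1. The gap took up 0.982 of the whole range of the 4 knockouts on the log2 scale. Wild types 1 and 2 read 4890.3 and 4388.5, so knockout 3 was the lowest of all 6 mice. With 15 probe sets looked at, chance marks about 1 group in 20. Without knockout 3 the log2 fold change was 0.17 in place of 0.091.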

How the results depend on the processing

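The count of member probe sets that passed in limma, 0, was the same under quantile normalisation, median centring, both other added values, the 40% filter, no intensity trend and leaving out any array but wild type 2. Without wild type 2 it was 1, the dimmer Slc17a6 probe set (range 0 to 1), with the spread taken from the knockouts alone, while the count over all probe sets ranged from 0 to 171. Partner genes stayed at 0. Exact permutation, with alternatives chosen after seeing the data, reached its smallest p for 0 members, and for 1, the brighter Slc17a6 probe set, after median centring. That centring put the median over all probe sets at -0.136 on the log2 scale, against 0.078, and the share of higher among those with an unadjusted p under 0.05 to 20.3%, against 72.8% as reported and 54.0% after quantile normalisation.

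Over 175 comparisons of member probe sets with an alternative, 23 turned the sign, on 9 of the 15. Median centring gave -0.17 for Slc17a7, -0.21 and -0.036 for the brighter and dimmer Gad1 probe sets, -0.12 for the brighter Gad2 one, and -0.14, -0.019 and -0.21 for the dim Slc32a1 ones. Quantile normalisation gave -0.044 for the brighter Gad1 probe set and -0.075 and -0.059 for 2 dim Slc32a1 ones, the last of which was -0.0027 with an added value 4 times larger. Averaging probe sets turned Slc17a6 to 0.13. With 1 array left out, log2 fold changes ran from -0.11 to 0.20 for Slc17a7, -0.048 to 1.60 for the dimmer and -0.75 to -0.29 for the brighter Slc17a6 probe set, -0.020 to 0.018 for the brighter Gad1 one, -0.11 to 0.68 for Chat, and -0.028 to 0.18 and -0.32 to 0.34 for 2 dim Slc32a1 ones. The brighter Slc6a5 probe set ran from -1.75 to -0.47 and the brightest Slc32a1 one from -0.61 to -0.18, without a change of sign. The dimmer Slc6a5 probe set had the opposite sign throughout, from 0.17 to 0.83. The cause was not tested. No paired analysis was possible because the labels give no numbers that the groups share. Background correction and slide could not be varied on the deposited table.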
